A study of Mus musculus with 2 samples.

Results

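The cells described here belong to a T cell cluster of mouse adipose tissue and lack transcripts of the regulatory T cell genes Foxp3 and Ikzf2, which other cells of the cluster carry. They are the cells of cluster 7 in the authors' deposited clustering that held 0 raw UMIs (unique molecular identifiers, 1 per captured transcript) of both genes. In all, 204 of 10017 clustered cells were such members, of 10159 cells in the files. They were thus chosen by the counts of these 2 transcripts and by the expression of all genes that entered the clustering, and every difference below is a description without a test.

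The study placed wild-type C57BL/6 mice on chow, the control diet, or on a ketogenic diet for 1 week. Resident CD45+ leukocytes were told from those in blood vessels by a label given into a vein, and were sequenced with a 10x Genomics droplet protocol. Each diet had 1 library (61 members in the chow library and 143 in the ketogenic library), the labels do not say how many mice went into either or how old they were beyond "adult", and so no difference between diets has a replicate. Intervals are 95% intervals, exact Poisson for a summed level, exact conditional for a ratio and Clopper-Pearson for a share, and they cover counting error only.

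Conventional helper T cells and regulatory T cells both carry the CD4 co-receptor. Helper cells that have met antigen display CD40 ligand, which licenses B cells and antigen-presenting cells, whereas regulatory T cells restrain immune responses through molecules such as CTLA-4 and interleukin-10. In visceral fat, many regulatory T cells carry ST2 (encoded by Il1rl1), the receptor for the alarmin interleukin-33, together with KLRG1 and the growth factor amphiregulin. Group 2 innate lymphoid cells (ILC2), which have no antigen receptor, use the same receptor and secrete interleukin-5, interleukin-13 and GM-CSF.

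The label of the cells, activated CD4 T cells without Foxp3, was first checked against markers. A UMI of Cd3e, Cd3d or Cd3g, the signalling chains of the T cell receptor, was present in 52 of 61 chow members (85.2%, 73.8 to 93%) and in 130 of 143 ketogenic members (90.9%, 85.0 to 95.1%). After every cell was thinned to 1000 UMIs the shares were 71.8% and 76.2%, against 3.03% and 7.5% in cluster 6, the dendritic-like cells used as the background for free RNA. In the ILC2-rich cluster 0 they were 12.7% and 13.7%, and in the NK-rich cluster 1 they were 9.83% and 11.9%. Members had median depths of 3100 and 3723 UMIs, and cluster 6 cells 7906 and 9922. Cd4 was sparse, with a UMI in 14 of 61 chow members and 31 of 143 ketogenic members (23.0% and 21.7%). Its share was similarly low in cluster 2, the large T cell cluster (25.8% and 27.2%), and was 1.95% and 2.25% in cluster 6. Cd8a, which marks the other T cell lineage, had 0 UMIs in the chow members and 16 UMIs in 7 ketogenic members. A list of 5 CD8 T cell markers summed to 94.9 and 146 CPM (counts per 1000000 UMIs) in members. In cluster 2 it summed to 412 and 524 CPM, so cluster 2 held more CD8 T cell transcripts. Most members thus held Cd3 transcripts, and Cd4 itself was too sparse to class single cells.

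A smaller part of the members went against the label. Of the 204, 40 (12 chow and 28 ketogenic) held 3 or more UMIs of 8 natural killer (NK) cell markers such as Ncr1, Klrb1c and Gzma. This was 19.6% of members, against 11.97% of the other cells of cluster 7, 10.3% of cluster 2 and 0.739% of cluster 0. In the NK-rich cluster 1 the share was 96.2%, and in the deeper cells of cluster 6 it was 27.5%. The limit of 3 UMIs was thus also reached by T cells and dendritic-like cells outside the members. These 40 cells were deep, with a median of 5340.5 UMIs, and 22 of them held a Cd3 UMI. In 22 of the 40, 3 or more UMIs of 8 ILC2 markers were present as well, so that 10.8% of members held this combination. It was found in 5.28% of the other cells of cluster 7, in 0.462% of the ILC2-rich cluster 0 and in 0.784% of the NK-rich cluster 1. Another 4 members, 2 in each library, held 165 to 437 UMIs of 9 dendritic cell markers and 12423 to 22724 UMIs in all. 1 chow cell belonged to both kinds. Together the dendritic-rich cells were 4 of 204 members, but they held 15.3% of all member UMIs in the chow library and 5.35% in the ketogenic library. Whether such cells were 2 cells in 1 droplet was not tested.

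**Figure D1:**
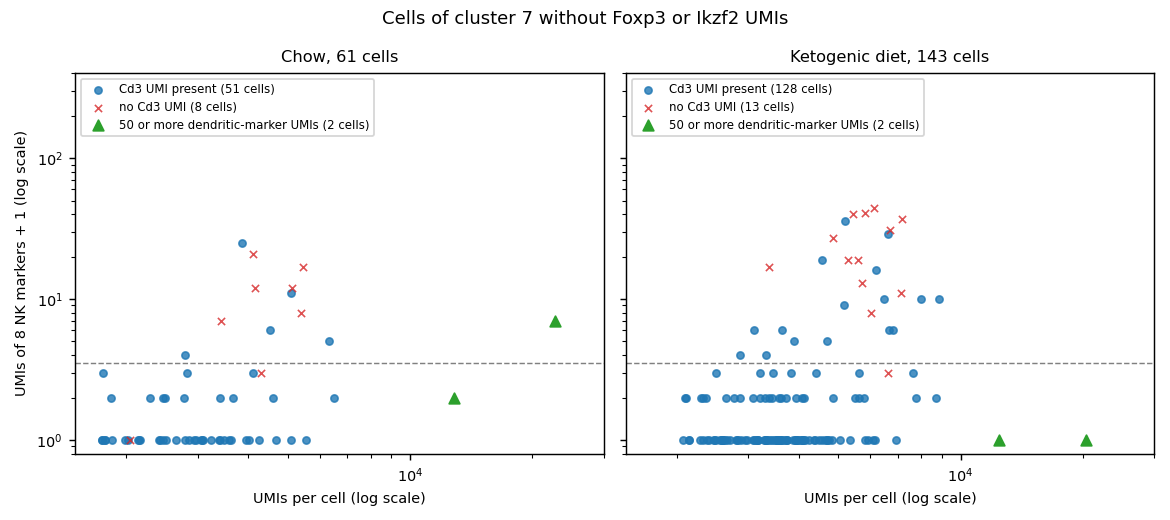
Total UMIs per member (x axis, log scale) against summed UMIs of 8 NK markers plus 1 (y axis, log scale), for chow (left) and ketogenic diet (right). Points are cells with a Cd3 UMI, crosses cells without one, and triangles cells with 50 or more dendritic-marker UMIs. The dashed line lies between 2 and 3 NK-marker UMIs. Most of the NK-marker-rich cells lie above the median depth of their library's members, and of the crosses all but 3 lie above the line.

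Because of these cells, the main results are given again without them, for 158 Cd3-restricted members (46 chow and 112 ketogenic) with at least 1 Cd3 UMI, fewer than 3 NK-marker UMIs and fewer than 50 dendritic-marker UMIs, a restriction chosen after the data were seen. These cells had median depths of 2848.5 and 3527.5 UMIs. Only 3 members lacked a Cd3 UMI without being rich in either set of markers.

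The cells with which the members share cluster 7 are 284 cells, 99 chow and 185 ketogenic, with at least 1 UMI of Foxp3 or Ikzf2 (the latter encodes the Helios factor). They are called Foxp3/Ikzf2 cells below. Of them, 48 and 100 had a Foxp3 UMI and 51 and 85 had Ikzf2 alone. Just outside the rule stood 60 cells with exactly 1 UMI of the 2 genes together, 31 chow and 29 ketogenic. Cd40lg in those 60 cells was at 68.3 and 71.3 CPM (counts per 1000000 UMIs of the cell set), between the members (285 and 265 CPM) and all Foxp3/Ikzf2 cells (37.5 and 29.9 CPM). Ctla4 was at 263 and 381 CPM there, against 94.9 and 58.9 CPM in the members and 544 and 517 CPM in all Foxp3/Ikzf2 cells. A missing UMI does not show a missing transcript. Had the Foxp3/Ikzf2 cells been thinned to 1000 UMIs, 30 of 99 on chow and 61 of 185 on the ketogenic diet would have read as 0 for both genes. Some members can therefore be cells whose Foxp3 or Ikzf2 transcript was not captured, and how many was not tested.

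The share of members among clustered cells was 1.37% (1.05 to 1.75%) on chow and 2.57% (2.17 to 3.02%) on the ketogenic diet, with a ratio of 1.88 (1.38 to 2.58). Among members with at least 1 Cd3 UMI the ratio was 2.0 (1.44 to 2.82), and among the Cd3-restricted members it was 1.95 (1.37 to 2.82). The Foxp3/Ikzf2 cells of the same cluster were also a larger share of the ketogenic library, by 1.5 (1.17 to 1.93). Of cluster 7 the members took 38.1% on chow and 43.6% on the ketogenic diet, for a ratio of 1.14 (0.842 to 1.57). Within clusters 2, 7 and 11, chosen here as T-like, they were 13.4% and 10.8%, a ratio of 0.809 (0.595 to 1.11). A further setting removed every cell with 2 or more UMIs of macrophage, B cell, plasma cell or dendritic markers. It kept only 70 of 4458 chow and 396 of 5559 ketogenic clustered cells, among them 2 chow and 6 ketogenic members. There the ratio was 0.530 (0.0948 to 5.37). The members were thus a larger share of all clustered cells in the ketogenic library. Over the few cells left by that removal the ratio pointed the other way, with an interval that also holds 1.88. The members' share of cluster 7 and of clusters 2, 7 and 11 together differed by no more than counting error.

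Several ligand and cytokine genes were higher in the members than in the Foxp3/Ikzf2 cells. Cd40lg, which encodes CD40 ligand (chromosome X, 57212143 to 57224042, plus strand, GRCm38), was detected in 29 of 61 chow and 64 of 143 ketogenic members. Its level was 285 (220 to 362) CPM in chow and 265 (226 to 309) CPM in ketogenic members, against 37.5 and 29.9 CPM in Foxp3/Ikzf2 cells, a difference of 7.59-fold (3.88 to 16.6) and 8.86-fold (5.75 to 14.2). In cluster 2 it was at 137 CPM in both libraries, and cluster 6 held 1 and 9 UMIs. The members therefore carried more Cd40lg than the Foxp3/Ikzf2 cells and also more than the large T cell cluster, in both libraries. Cluster 2 held more CD8 T cell transcripts than the members (412 and 524 against 94.9 and 146 CPM). The part of CD8 T cells in its Cd40lg level was not tested. In Cd3-restricted members the Cd40lg level was 437 and 374 CPM, with a UMI in 27 of 46 and 62 of 112 cells.

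Further ligands of the tumour necrosis factor family followed. Tnfsf11, the gene of RANKL (receptor activator of NF-kB ligand), was at 362 and 329 CPM in members against 45.0 and 68.5 CPM in Foxp3/Ikzf2 cells, 8.05-fold (4.37 to 16.2) and 4.80-fold (3.55 to 6.59) higher. Cluster 2 had 29.0 and 44.5 CPM of it, and the ILC2-rich cluster 0 had 170 and 209 CPM. Tnfsf8, which encodes CD30 ligand, was at 125 and 113 CPM. It had 0 UMIs in the chow Foxp3/Ikzf2 cells and 21.2 CPM in the ketogenic ones. The chow level in members was at least 8.48-fold higher by the lower limit of the exact interval, and 11.1-fold higher when set against a floor of 3 UMIs over that group. Only 7 chow and 17 ketogenic members had a Tnfsf8 UMI, and 44.8% of the chow UMIs came from 1 cell. Il2, the growth factor that conventional T cells make and regulatory T cells consume, was at 51.8 and 72 CPM against 11.3 and 18.7 CPM. Its levels in cluster 2, 45.0 and 65.3 CPM, lay close to those of all members and below the 78.8 (39.3 to 141) and 96.0 (68.6 to 131) CPM of the Cd3-restricted ones.

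Il5 and Csf2 were higher in the members than in the large T cell cluster as well. Il5, the eosinophil growth factor, was at 207 (153 to 275) and 334 (289 to 383) CPM in members. Foxp3/Ikzf2 cells had 22.5 and 43.6 CPM of it, and cluster 2 had 8.04 and 7.53 CPM. UMIs of Il5 were found in 15 of 61 chow and 41 of 143 ketogenic members, so the level rested on a minority of the cells. Csf2, encoding GM-CSF, was at 220 and 343 CPM, against 26.3 and 58.5 CPM in Foxp3/Ikzf2 cells and 4.83 and 6.82 CPM in cluster 2. Both transcripts were also high in cluster 0, with 426 and 303 CPM of Il5 and 607 and 813 CPM of Csf2. Il13 was present in few cells, 2 UMIs in 2 chow members and 34 UMIs in 7 ketogenic members, and Il4 had 1 and 8 UMIs.

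ILC2 transcripts were not absent from the Cd3-restricted members, of which 45 of 158 held 3 or more UMIs of the 8 ILC2 markers. A Cd3 UMI was in turn present in 24.4% and 28.5% of cluster 0 cells. The part of ILC2 or their RNA in the Il5 and Csf2 levels was not tested. Restriction raised the Il5 level, to 315 and 365 CPM, and changed Csf2 to 172 and 324 CPM. Il5 and Csf2 were therefore also found in members with a Cd3 UMI and few NK or dendritic transcripts.

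Il5 (53720794 to 53725106) and Csf2 (54247271 to 54249667) both lie on chromosome 11, and both were high here. For that reason their RefSeq promoter windows (GRCm38.p6, from 250 bases before to 50 bases after the start) are printed with those of Tnfsf11, another ligand that was high, and of Ctla4, which was low. Cd40lg has no entry in the table used. In each, capitals mark GGAAA (the core of NFAT sites), AGATAA (bound by the family of Gata3) and TGANTCA (bound by Fos and Jun), searched on both strands, so that GGAAA can also appear as TTTCC.
Il5: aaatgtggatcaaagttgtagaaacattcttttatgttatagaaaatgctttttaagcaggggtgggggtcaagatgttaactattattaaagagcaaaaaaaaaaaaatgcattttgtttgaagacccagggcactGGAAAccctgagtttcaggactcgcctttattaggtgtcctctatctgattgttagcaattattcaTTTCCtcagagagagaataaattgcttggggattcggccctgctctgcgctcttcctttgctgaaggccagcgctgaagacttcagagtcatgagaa
Csf2: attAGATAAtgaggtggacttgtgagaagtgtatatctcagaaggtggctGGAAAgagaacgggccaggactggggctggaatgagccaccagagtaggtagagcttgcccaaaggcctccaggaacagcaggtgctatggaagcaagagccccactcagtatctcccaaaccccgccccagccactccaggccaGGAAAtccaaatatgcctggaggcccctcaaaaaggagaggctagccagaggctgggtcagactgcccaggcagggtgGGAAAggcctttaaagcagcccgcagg
Tnfsf11: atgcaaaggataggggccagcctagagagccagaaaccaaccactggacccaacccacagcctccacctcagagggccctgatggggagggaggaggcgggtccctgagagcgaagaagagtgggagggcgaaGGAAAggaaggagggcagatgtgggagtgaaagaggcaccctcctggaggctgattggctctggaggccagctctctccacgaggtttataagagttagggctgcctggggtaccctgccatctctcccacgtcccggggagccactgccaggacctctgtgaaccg
Ctla4: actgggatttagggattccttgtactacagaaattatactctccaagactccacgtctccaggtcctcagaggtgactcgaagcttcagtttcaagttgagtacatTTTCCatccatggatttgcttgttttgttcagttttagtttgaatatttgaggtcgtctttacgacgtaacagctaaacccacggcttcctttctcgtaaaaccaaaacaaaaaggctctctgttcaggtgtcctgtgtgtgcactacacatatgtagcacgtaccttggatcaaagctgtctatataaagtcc
The Il5 window (chr11:53720544-53720843, plus strand) held 2 GGAAA matches and the Csf2 window (chr11:54249850-54250149, minus strand) 3, with 1 AGATAA. Tnfsf11 (chr14:78307994-78308293, minus strand) and Ctla4 (chr1:60908775-60909074, plus strand) held 1 GGAAA each, and no window held TGANTCA. The windows follow RefSeq starts. In GENCODE M21 the Csf2 gene starts at 54249667 and the Ctla4 gene at 60887000, and neither window contains that position. Of 32851 promoter windows of this length, 61.3% hold GGAAA, 11.2% AGATAA and 7.81% TGANTCA, so that these matches are common and describe the windows only.

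**Figure D2:**
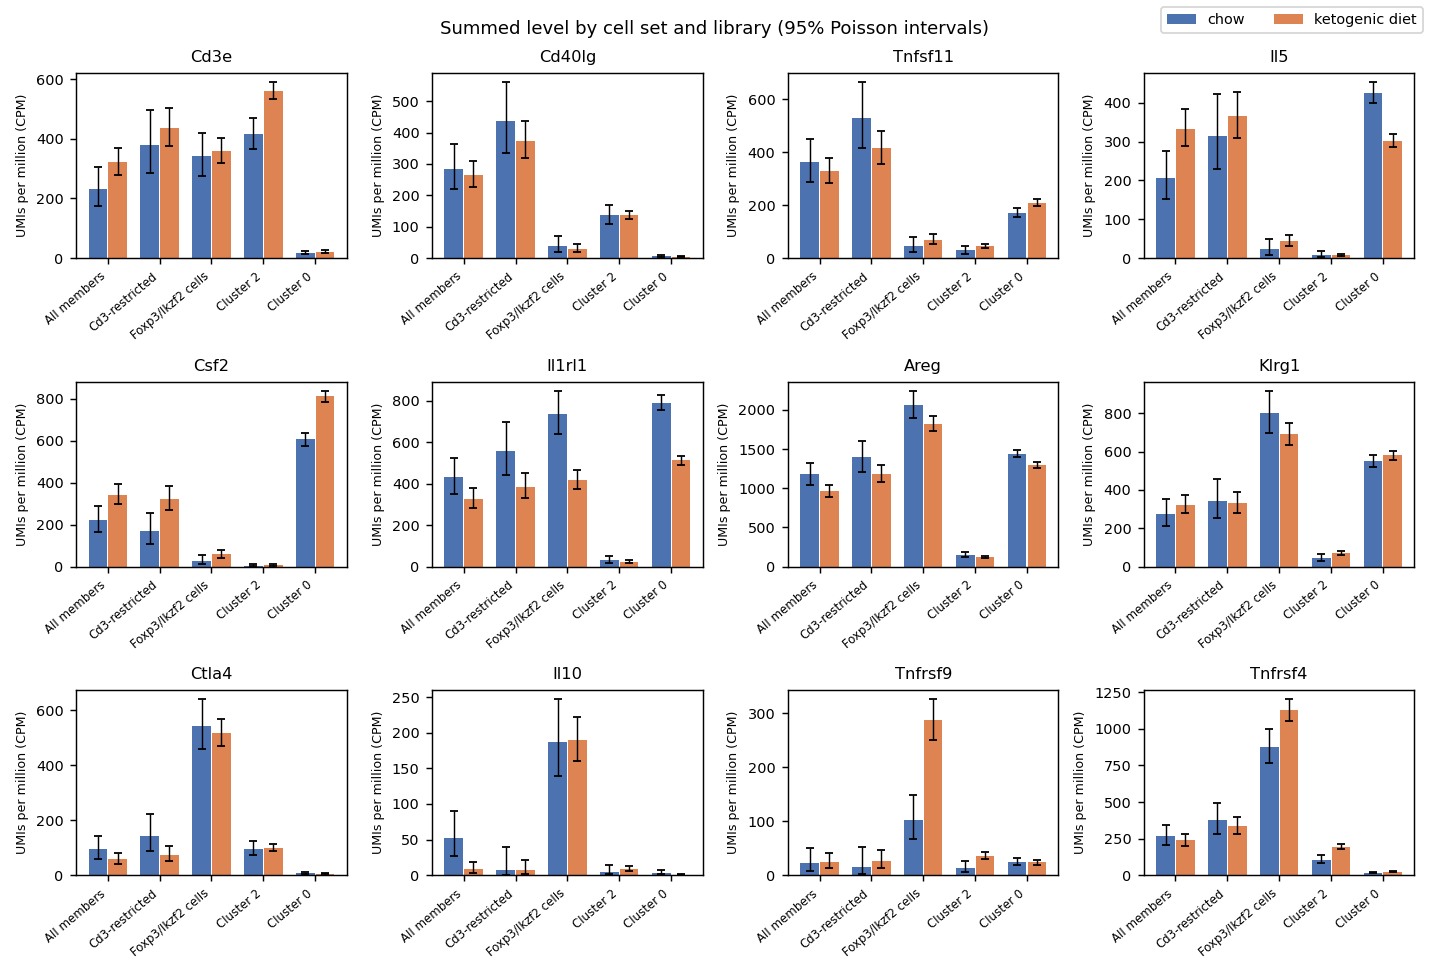
Summed level in CPM (y axis, from 0) of 12 genes in 5 cell sets (x axis) for chow (blue) and ketogenic diet (orange), with 95% Poisson intervals. Cd40lg, Tnfsf11, Il5 and Csf2 stand well above the Foxp3/Ikzf2 cells in both libraries, whereas Ctla4, Il10, Tnfrsf9 and Tnfrsf4 stand below them.

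Shared markers of tissue T cells were present in the members at lower levels than in the Foxp3/Ikzf2 cells. Il1rl1, the ST2 gene, was at 432 (351 to 525) and 329 (285 to 377) CPM in members and at 739 and 417 CPM in Foxp3/Ikzf2 cells. Cluster 2 had 32.2 and 23.7 CPM of it. Areg, encoding amphiregulin, was at 1178 and 960 CPM against 2068 and 1824 CPM, and Klrg1, an inhibitory receptor of differentiated lymphocytes, at 276 and 324 CPM against 803 and 690 CPM. In cluster 2 Areg was at 150 and 126 CPM and Klrg1 at 43.4 and 70.0 CPM. The order was the same for all 3 genes in both libraries, with the Foxp3/Ikzf2 cells above the members and the members above cluster 2. The ILC2-rich cluster 0 had more of each than the members, with 790 and 513 CPM of Il1rl1, 1443 and 1298 CPM of Areg and 549 and 580 CPM of Klrg1. Gata3, the type 2 lineage factor, was level on chow, at 496 CPM in members and 495 CPM in Foxp3/Ikzf2 cells. In the ketogenic library it was somewhat lower in members, at 443 against 534 CPM. Cluster 2 had 113 and 140 CPM of Gata3. Cells with at least 1 UMI of Il1rl1 were 77% and 62.9% of members, against 12.1% and 12.4% of cluster 6 at its greater depth. After thinning to 1000 UMIs these shares were 36.7% and 27.3%, against 1.94% in cluster 6 of either library.

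Over all genes, the members and the Foxp3/Ikzf2 cells differed by more than 2-fold in the same direction in both libraries for 40 genes that were higher and 60 that were lower in members, of 4018 genes with at least 50 UMIs (0.996% and 1.49%). In Cd3-restricted cells of both kinds the counts were 48 and 72 of 2937 genes (1.63% and 2.45%). Ranked by the weaker of the 2 libraries, the 12 highest were Il5, Cd40lg, Csf2, Tnfsf8, Ccl1, Tnfsf11, Pard3, Il2, Fam213a, Furin, Gm29243 and Serpinb1a, and 10 of them were also among the 12 highest after restriction. Ccl1, the chemokine that binds CCR8, was at 272 and 118 CPM against 7.51 and 22.4 CPM in Foxp3/Ikzf2 cells. Furin, a proprotein convertase, had a UMI in 39 of 61 and 98 of 143 members and was 3.66-fold (2.76 to 4.92) and 4.28-fold (3.51 to 5.24) higher. Furin was also high in cluster 0 (1569 and 1166 CPM) and low in cluster 2 (57.9 and 33.4 CPM). Serpinb1a, a protease inhibitor, showed the same order, with 142 and 128 CPM in members, 263 and 229 CPM in cluster 0 and 17.7 and 16.5 CPM in cluster 2.

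The 12 lowest genes were Frmd5, Cxcl3, Sdcbp2, Ccr1, Rln3, Ctla4, Rapsn, Egln3, Pcyt1a, Tnfrsf9, Penk and Slc52a3, of which 8 stayed among the 12 lowest after restriction. Ctla4, the inhibitory receptor that binds CD80 and CD86, was 5.73-fold (3.65 to 9.43) lower in chow and 8.78-fold (6.24 to 12.7) lower in ketogenic members. Levels of Ctla4 in the members, 94.9 and 58.9 CPM, were at or below those of cluster 2 (94.9 and 99.7 CPM). In Cd3-restricted members they were 143 (87.5 to 221) and 74.4 (50.5 to 106) CPM, so that the chow level then lay above that of cluster 2. Tnfrsf9, the costimulatory receptor 4-1BB, was at 21.6 and 24.5 CPM against 101 and 286 CPM. Frmd5 had 2 UMIs in chow and 1 UMI in ketogenic members against 33 and 90 UMIs in the Foxp3/Ikzf2 cells. Cxcl3, a neutrophil chemokine, had 3 UMIs in each library's members against 42 and 100 UMIs, and Ccr1, a chemokine receptor, had 4 and 3 UMIs against 30 and 60 UMIs. After restriction Il10 came to lead the list, with 1 and 3 UMIs in members (7.16 and 7.20 CPM) against 50 and 127 UMIs in Cd3-restricted Foxp3/Ikzf2 cells (246 and 235 CPM). Before it, 12 Il10 UMIs were counted in 2 chow members, so that its level in all members turned on 1 or 2 cells.

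**Figure D3:**
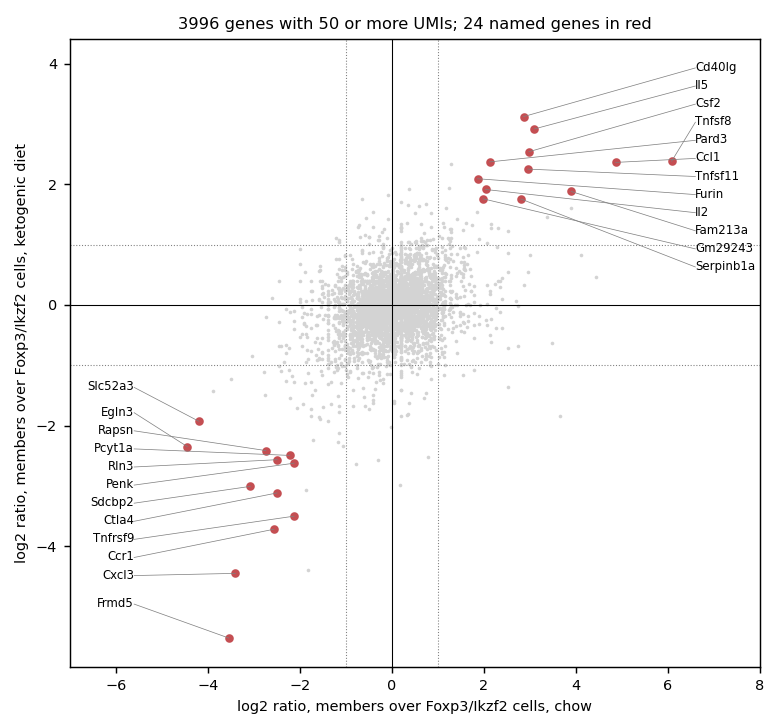
Each point is a gene, with the log2 ratio of members over Foxp3/Ikzf2 cells in the chow library (x axis) and in the ketogenic library (y axis). Left out are Foxp3, Ikzf2, the antigen receptor genes of T and B cells and the mitochondrial genes, which leaves 3996 of the 4018 genes. The 24 named genes (red) lie past the dotted lines at 2-fold in the upper right and lower left corners.

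The gene lists put these genes in context. A list gene was counted when it had at least 10 UMIs in the cells compared, and 1.80% of the 8501 such genes were more than 2-fold higher in members in both libraries and 2.58% lower. Foxp3 and Ikzf2, which made the split, were left out of the regulatory T cell list. Of its 12 other measured genes, 0 were higher and 8 lower, with medians of -1.76 in chow and -1.61 in ketogenic cells on the log2 scale against 0.06 and -0.03 for all genes. With the Cd3 restriction 0 were higher and 8 lower as well (2.7% and 3.54% of 7399 genes). The 8 included Ctla4, Tnfrsf4, Tnfrsf9, Il10, Ebi3, a subunit of interleukin-35, and Lrrc32, which anchors TGF-beta at the surface. Tnfrsf4, the OX40 receptor, was at 268 and 239 CPM against 878 and 1128 CPM. Il2ra, the high-affinity receptor chain for interleukin-2, lay within 2-fold, at 237 and 185 CPM against 390 and 341 CPM, and Tnfrsf18 (GITR) at 406 and 654 CPM against 739 and 949 CPM.

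Activation genes lay on both sides. Of 20 measured genes, 5 were higher in members in both libraries, 4 were lower and 11 were neither. The 5 were the ligand and cytokine genes Cd40lg, Il2, Tnfsf8 and Tnfsf11, and Egr2, an early response factor at 25.9 and 34.3 CPM in members and 0 and 3.74 CPM in Foxp3/Ikzf2 cells. The 4 that were lower were the receptor genes Ctla4, Tnfrsf4, Tnfrsf9 and Pdcd1. Cd44, Cd69, Nr4a1 and Nfkbid lay within 2-fold in both libraries, so that the members and the Foxp3/Ikzf2 cells did not differ in every activation gene. The T cell receptor complex list had 0 higher and 0 lower of 16 genes, with medians of -0.02 and 0.08.

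Helper T cell lineage lists gave a type 2 pattern. In Cd3-restricted members set against cluster 2, 7 of 8 measured type 2 helper genes were more than 2-fold higher in both libraries and 0 lower (4.77% and 3.13% of 9661 genes), with medians of 2.70 and 3.23. Type 1 helper genes had 1 higher and 3 lower of 10, and the naive T cell list 0 higher and 5 lower of 7. Ifng, the type 1 cytokine, was at 14.3 and 38.4 CPM in Cd3-restricted members and at 96.5 and 150 CPM in cluster 2. The list of 13 ILC2 markers, which shares genes with the type 2 list, summed to 3918 and 3645 CPM in Cd3-restricted members. It was at 495 and 500 CPM in cluster 2 and at 6422 and 6354 CPM in cluster 0. The CD8 T cell list was at 93.1 and 127 CPM against 412 and 524 CPM in cluster 2. The part of ILC2 and CD8 T cell transcripts in these differences was not tested. Il17a, Il17f and Cxcr5 had 0 UMIs in members of both libraries, where a count of 0 allows up to 3 UMIs per library as a one-sided 95% limit. Ccr7, a chemokine receptor for entry into lymph nodes, had 1 UMI in the chow and 11 UMIs in the ketogenic Cd3-restricted members. Cluster membership rests on the same genes, so these counts describe cluster 7 and cluster 2 and do not test them.

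The members were not uniform. In Cd3-restricted members, 27 of 46 chow cells had a Cd40lg UMI, 9 had a Ctla4 UMI and 2 had both, where the product of the shares of the 2 genes gives 5.28 cells. The ketogenic library had 62, 14 and 2 such cells of 112, where the product gives 7.75. Cd40lg and Tnfsf11 were found together in 16 chow and 37 ketogenic cells, where the product gives 10.6 and 28.8. For Cd40lg and Il1rl1 the 21 and 39 cells with both lay close to the product, 20 and 38.2, as did the 8 and 20 cells with Cd40lg and Il5 (7.04 and 18.3). These counts are small and were not tested. Among Cd3-restricted Foxp3/Ikzf2 cells, 8 chow and 13 ketogenic cells had Cd40lg, 55 and 117 had Ctla4, and 5 and 9 had both (5.18 and 9.75 from the shares).

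Splitting the Cd3-restricted members by these 2 transcripts gave 85 cells with Cd40lg alone, 19 with Ctla4 alone, 4 with both and 50 with neither. The split pools the libraries. Cells with Ctla4 alone had 753 (538 to 1025) CPM of Tnfrsf4, 791 (570 to 1069) CPM of Klrg1 and 2805 (2373 to 3293) CPM of Areg. Those with Cd40lg alone had 359 (295 to 432), 229 (179 to 289) and 1344 (1218 to 1480) CPM. For Tnfsf11 the order was reversed, at 56.5 (11.6 to 165) against 666 (578 to 763) CPM, as for Csf2 with 1 UMI against 111 and Furin at 188 (90.3 to 346) against 914 (811 to 1027) CPM. These 6 of the genes compared were chosen after their values were seen. In the cells with Ctla4 alone Il10 was at 37.7 (4.56 to 136) CPM, Tnfrsf9 at 56.5 (11.6 to 165) CPM and Il5 at 113 (41.5 to 246) CPM, on 2, 3 and 6 UMIs. Cd3-restricted Foxp3/Ikzf2 cells had 246 and 235 CPM of Il10, 118 and 363 CPM of Tnfrsf9 and 14.8 and 44.5 CPM of Il5, and of these the interval holds the chow value of Tnfrsf9 and the ketogenic value of Il5. The median depth was 2807 UMIs in the cells with Ctla4 alone and 3539 UMIs in those with Cd40lg alone. The cells with neither had 522 (420 to 641) CPM of Il5, and 320 (260 to 389) CPM was found in those with Cd40lg alone.

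Clustering the members on their own (Leiden, resolution 0.5) gave 3 sub-clusters, which are left unnamed. The first, 114 cells (34 chow and 80 ketogenic), contained all 4 dendritic-rich cells. Its leading genes, the antigen presentation genes Cd74, H2-Eb1 and H2-Aa, came mainly from those 4 cells, which held 90.1%, 89.4% and 88.4% of their UMIs. In the other 110 cells H2-Eb1 was at 199 CPM, against 188 CPM in the other sub-clusters. Without the 4 cells the sub-cluster was led by Bcl2a1b, Ndrg1, Tnfrsf4 and Ctla4, with Tnfrsf4, for example, at 454 CPM against 87.9 CPM in the others. Cd3 UMIs were present in 98.2% of all its cells and Cd40lg was at 396 CPM. The second, 54 cells (15 and 39) with a median of 5239 UMIs, was led by Gzma, Spry2, Ccl5, Nkg7 and Xcl1 and contained 37 of the 40 NK-marker-rich cells. It had a Cd3 UMI in 63.0% of cells, 35.4 CPM of Cd40lg and 191 CPM of Hs3st1. The third, 36 cells (12 and 24), was led by Fos (3185 CPM), an immediate early gene, and had 364 CPM of Cd40lg and Cd3 UMIs in every cell. Each sub-cluster held a similar share of either library, from 55.7% and 55.9% of members for the first to 19.7% and 16.8% for the third.

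At a resolution of 1.0 the number rose to 7. A group of 31 cells (14 chow and 17 ketogenic), led by Egr4 and Il13, held 795 CPM of Il5, 714 CPM of Csf2, 946 CPM of Tnfsf11 and 607 CPM of Cd40lg, with no Ctla4 UMI. At the other end were 7 cells (4 and 3) with no UMI of Cd40lg, Csf2 or Tnfsf11. Ctla4 was at 1157 CPM there and found in each of the 7, with 10 of its 21 UMIs in 1 cell. Il10 headed the leading genes of these 7 cells, but its 11 UMIs all came from 1 cell, which had no Cd3 UMI. The remaining cells fell into groups led by Izumo1r and Slamf6 (51 cells), by Gzma (50), by Fos (32), by 4932438H23Rik, Vcam1 and Gbp2 (29) and by Cd74 (4). The group of 29, with the interferon-response genes Gbp2 and Isg15 among its leading genes, held 4 chow and 25 ketogenic cells, which is 6.56% and 17.5% of the members.

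Between the diets, 61 of 2033 genes with at least 50 UMIs in the members were more than 2-fold higher in the ketogenic library and 49 were lower (3% and 2.41%). Cd3-restricted members gave 41 and 23 of 1365 (3% and 1.68%). Of the genes described above, 7 are given here. The ratio of ketogenic over chow was 0.930 (0.695 to 1.26) for Cd40lg, 0.907 (0.700 to 1.18) for Tnfsf11, 0.815 (0.705 to 0.944) for Areg, 0.762 (0.596 to 0.978) for Il1rl1 and 1.17 (0.880 to 1.58) for Klrg1. Il5 and Csf2 were higher in ketogenic members, by 1.61 (1.17 to 2.25) and 1.56 (1.14 to 2.16). With Cd3-restricted cells the Il5 ratio was 1.16 (0.823 to 1.66) and that of Csf2 1.88 (1.21 to 3.04). None of these 7 genes passed 2-fold in either set of cells.

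Several genes were higher in the ketogenic members in both sets of cells. The 12 highest ratios belonged to Hba-a1, Rbbp7, Nap1l4, Rrad, Rftn1, Tuba4a, Hs3st1, Gadd45g, Hsd11b1, Znrf1, Txnip and Arhgap31, and 5 of them were also among the 12 highest after restriction. Hba-a1, an alpha-globin gene, had 4 UMIs in 2 chow members and 84 UMIs in 34 ketogenic members, a ratio of 7.96 (3.0 to 29.9). It had 0 and 40 UMIs in Foxp3/Ikzf2 cells and 0 and 13 in cluster 2. In the ILC2-rich cluster 0 Hba-a1 was at 105 and 516 CPM, against 17.3 and 137 CPM in members. Of the 5 erythroid markers, the other 4 had 0 UMIs in chow members and 2 were at 0 in the ketogenic ones. The part of free RNA in Hba-a1 was not tested.

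Rrad, a small GTPase, was at 86.3 (52.7 to 133) CPM in chow and 358 (312 to 409) CPM in ketogenic members, 4.15-fold (2.62 to 6.93) higher. After restriction it was 2.96-fold (1.81 to 5.12) higher, and it was 143 and 240 CPM in Foxp3/Ikzf2 cells. Arhgap31, a GTPase-activating protein, was at 60.4 and 172 CPM in members, 2.84-fold (1.62 to 5.38) higher, but at 330 and 366 CPM in Foxp3/Ikzf2 cells. Tuba4a, a tubulin, was at 47.5 and 167 CPM in members and at 128 and 148 CPM in Foxp3/Ikzf2 cells, so that the members lay lower on chow alone. Txnip, an inhibitor of thioredoxin that also limits glucose uptake, was at 25.9 and 76.9 CPM in members, against 128 and 83.4 CPM in Foxp3/Ikzf2 cells. In Cd3-restricted members Txnip had 2 UMIs in chow and 39 UMIs in ketogenic cells, at 6.53-fold (1.69 to 55.8). The difference in diet response between the 2 kinds of cell was not tested.

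Restriction brought forward further genes. Arid5a, an RNA-binding protein that stabilises cytokine transcripts, was at 35.8 and 146 CPM in Cd3-restricted members, 4.09-fold (1.66 to 13) higher in the ketogenic library. Bcl2, the survival factor, was at 100 (54.8 to 168) and 281 (232 to 336) CPM, 2.80-fold (1.60 to 5.28) higher. It was 45.0 and 107 CPM in Foxp3/Ikzf2 cells and 312 and 352 CPM in cluster 2. Ecm1, a secreted protein that type 2 helper cells make, was 3.28-fold (1.32 to 10.6) higher, at 35.8 and 118 CPM. Zc3h12a, which encodes the RNase regnase-1, was 2.90-fold (1.25 to 8.27) higher. Each of these 4 had 5 to 14 UMIs in the chow cells, so their intervals are wide.

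Genes lower in ketogenic members were led by transcripts of myeloid cells. The 12 lowest were Ccl17, Retnla, Ccl9, Ccl6, Lyz2, Notch2, Mt1, Cd83, H2-Eb1, Ctsh, H2-Aa and Il1b, and 4 of them were also among the 12 lowest after restriction. Of the 58 chow UMIs of Ccl17, a dendritic cell chemokine, 96.6% came from 1 cell, and after restriction it had 0 and 2 UMIs. Retnla was at 1493 and 44.2 CPM in all members, with 75.7% of its chow UMIs in 1 cell, and at 394 and 40.8 CPM in Cd3-restricted members. Lyz2, the macrophage lysozyme, was at 872 and 142 CPM and after restriction at 537 and 74.4 CPM. The whole macrophage list, summed over 10 genes, was at 1109 and 200 CPM in members and 738 and 113 CPM after restriction. It moved alike in the Foxp3/Ikzf2 cells (1865 and 398 CPM) and in cluster 2 (775 and 135 CPM), and none of its genes was at 0 in the members (1 in chow and 3 in ketogenic cells after restriction). Its part in the differences of these genes was not tested. The dendritic cell list was at 3426 and 1212 CPM in all members and at 888 and 439 CPM after restriction.

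Apart from myeloid transcripts, Ccl1 was the gene with the lowest ratio among the Cd3-restricted members. It was at 315 (229 to 423) CPM in chow and 62.4 (40.8 to 91.4) CPM in ketogenic cells, 5.05-fold lower, from 44 UMIs in 7 cells and 26 UMIs in 10 cells. A single cell held 45.5% of the chow and 42.3% of the ketogenic UMIs. In all members it was 2.31-fold (1.62 to 3.28) lower, while Foxp3/Ikzf2 cells and cluster 2 had 7.51 and 22.4 CPM and 9.65 and 60.6 CPM. The ILC2-rich cluster 0 had 448 and 319 CPM of Ccl1, likewise lower in the ketogenic library. Pdlim1, a PDZ and LIM domain protein, was 2.37-fold lower in Cd3-restricted members (165 and 69.6 CPM) from 16 and 23 cells, and 2.05-fold (1.28 to 3.26) lower in all members. Cxcl10, an interferon-induced chemokine, was at 229 and 98.4 CPM after restriction, with 62.5% of the chow UMIs in 1 cell.

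**Figure D4:**
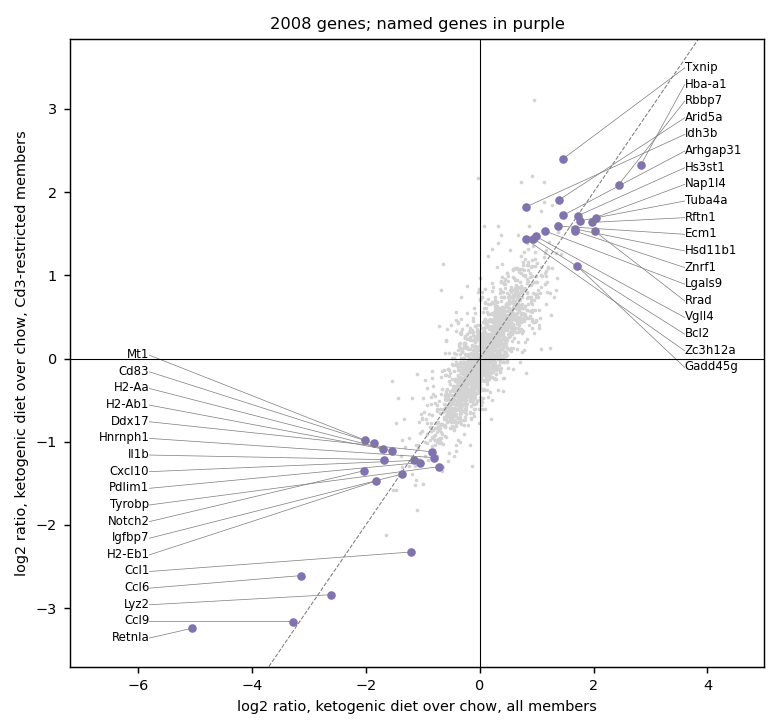
Log2 ratio of ketogenic diet over chow for each gene in all members (x axis) and in Cd3-restricted members (y axis). The dashed line marks equal ratios, and genes named in either set of cells are in purple. Ccl1 and Txnip lie farther from 0 after restriction, whereas Retnla, Mt1 and Cd83 lie closer to 0. Only genes with 10 or more UMIs in the restricted cells are drawn, so Ccl17 is absent.

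Gene lists showed few members past 2-fold between the diets, where 10.3% of 6389 genes with at least 10 UMIs were higher and 6.56% lower. The glycolysis list had 1 of 15 genes higher and 0 lower, with a median of 0.59 in all members and 0.35 in Cd3-restricted ones against 0.04 and 0.02 for all genes. The 1 was Pfkl, on 2 and 17 UMIs. After restriction 2 of the 15, Eno1 and Slc2a3, were higher and 0 lower, where 11.4% of 5082 genes were higher and 7.01% lower. Aldoa, encoding a core glycolytic enzyme, was within 2-fold at 306 and 571 CPM in members, as was Eno1, which acts later in the pathway, at 207 and 375 CPM. Aldoa was also higher in ketogenic Foxp3/Ikzf2 cells (349 and 605 CPM) and in cluster 2 (228 and 417 CPM). Of 3 measured genes of ketone body metabolism 0 were past 2-fold, and Oxct1, the enzyme that commits ketone bodies to oxidation, was at 17.3 and 32.7 CPM on 4 and 20 UMIs. The fatty acid oxidation list had 0 higher and 1 lower of 11, which was Cpt1a with 10 UMIs in chow and 4 in ketogenic members. In the interferon response list Igtp (2 and 14 UMIs) was higher and Gbp2 (17 and 10 UMIs) lower of 10 genes. The immediate early list had 0 higher and 1 lower of 14, which was the heat shock gene Hspa1b with 9 and 3 UMIs. T cell receptor genes had 1 higher and 0 lower of 16. The 1 was Lck, the kinase that starts T cell receptor signalling, at 121 and 260 CPM in members, 2.15-fold (1.43 to 3.34) higher. Lck was at 161 and 234 CPM in Foxp3/Ikzf2 cells and at 285 and 486 CPM in cluster 2. The constant gene Trbc1, at 488 and 945 CPM in members and 664 and 973 CPM in cluster 2, stayed within 2-fold.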

How the data were processed

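Adipose CD45+ cells from 1 chow and 1 ketogenic library were analysed as UMI counts per gene and cell, as the authors deposited them, with 28692 genes. The submitters' processing notes name Cell Ranger, Seurat and mm10, without versions. Cluster numbers come from the authors' deposited clustering, whose t-SNE map scores, deposited beside them, were not used. The 142 cells without a cluster were left out. 41 barcodes occurred in both libraries, 1 of them in a member.

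UMIs were summed per cell set and library and given as CPM, computed here. Log2 ratios added 0.5 to each count. A gene was called past 2-fold with at least 50 UMIs in the sets compared, or at least 10 for list genes. With 1 library a diet no test across samples exists. Cells were thinned to 1000 UMIs by exact expectation. Named genes were the 12 highest and 12 lowest ratios, for members against Foxp3/Ikzf2 cells by the weaker library, leaving out Foxp3, Ikzf2, mitochondrial, immunoglobulin and T cell receptor genes, together with list genes. Members, gene lists and the rule were chosen with earlier results of these data known. No doublet caller was run. Calculations used Python 3.11.15, numpy 2.4.6, scipy 1.17.1, pandas 2.3.3, scanpy 1.11.5 and igraph 0.11.9, and were tested on simulated data. Gene positions are from GENCODE M21 and promoter windows from RefSeq, both GRCm38.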

Additional observations from a re-analysis of the deposited data

How the results depend on the processing

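The ratio of member shares between diets, 1.88, was 1.14 over cluster 7 alone, 0.809 over clusters 2, 7 and 11, and 0.530 (0.0948 to 5.37) after removing cells with 2 or more UMIs of macrophage, B cell, plasma cell or dendritic markers. That removal left 2 chow and 6 ketogenic members among 70 and 396 clustered cells. It was therefore not run for gene counts, and it gave shares of 2.86% and 1.52%. Chow and ketogenic shares were 0.426% and 1.10% for members also at 0 UMIs of Il2ra and Ctla4, 1.03% and 2.01% with the Cd3 restriction, and 2.04% and 3.67% with the rule applied after thinning. Genes past 2-fold between diets, 61 higher and 49 lower, were 301 and 185 at a minimum of 20 UMIs and 15 and 19 at 100. Without the cell holding most UMIs of each gene 111 were higher. With the Cd3 restriction 41 were higher and 23 lower, of 1365 genes instead of 2033. Members against Foxp3/Ikzf2 cells, 40 higher and 60 lower, gave 98 and 120 at 20 UMIs and 24 and 33 at 100. The mean over cells gave 65 higher, and cells of at least 3000 UMIs gave 29 lower. Sub-clusters numbered 3, or 7 at a resolution of 1.0. Among values of single genes, 355 stayed within their counting interval, 60 moved beyond it and 4 turned direction. Ccl17 turned to 0.74 (log2, ketogenic over chow) with the Cd3 restriction, but on 0 chow and 2 ketogenic UMIs, so that this value rests on the 0.5 added to each count. Il10 turned to 0.34 in members with a Cd3 UMI, 1.52 in members of at least 3000 UMIs and 0.18 without its top cell. The causes were not tested. No paired analysis was possible because each diet has 1 library. The depth limits genes with few UMIs in the 61 chow members, where a count of 0 allows up to 3 UMIs (one-sided 95% limit).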

Other observations

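Cells with UMIs of Cd3, Cd40lg and Il1rl1 and none of Foxp3 or Ikzf2 were also counted in every other cluster. There were 41 in the chow and 71 in the ketogenic library, of which 23 and 40 lay in cluster 7 (14.4% and 12.2% of its cells). Outside it were 18 and 31 cells, among them 8 and 7 in the ILC2-rich cluster 0 (0.937% and 0.534%) and 3 and 11 in cluster 2 (1.27% and 1.34%). In the ketogenic library clusters 10, 12 and 5 held 4, 1 and 5 such cells (2.60%, 2.04% and 1.40%), and in the chow library 0. An Il5 UMI was also present in 8 and 17 of those in cluster 7, in 6 and 2 of those in cluster 0 and in 0 of those in cluster 2. Elsewhere Il5 was present in 2 ketogenic cells of cluster 10 and in 1 each of clusters 5 and 6. Droplets of more than 1 cell were not tested for.

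T cell receptor beta variable genes were too sparse to describe clones. Only 1 of 46 chow and 5 of 112 ketogenic Cd3-restricted members had a UMI of any of 35 such genes.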
